A study of Mus musculus with 20 samples.

Results

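Metallothioneins are small, cysteine-rich proteins that bind zinc and copper, and ZnT1 is the plasma membrane transporter that moves zinc out of the cell. The genes followed here were 7 human metallothionein genes (MT2A, MT1E, MT1F, MT1G, MT1H, MT1M and MT1X) and the ZnT1 gene SLC30A1 in livers of humanized mice, and Mt1, Mt2 and Slc30a1 in livers of WT mice. They are 8 of the 60607 genes listed for humanized livers and 3 of the 55335 listed for WT livers, matched by their exact symbols. They were chosen by measured values of the same contrast as the one described here, since MT1H was known to be higher in humanized livers and Slc30a1 lower in WT livers after HuR knockdown. Their knockdown differences are therefore a description, given without a p-value.

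The study asked how far human and mouse hepatocytes respond alike to the same change, and lowered HuR (ELAVL1), a protein that binds AU-rich RNA, in both. Total liver RNA was sequenced from 8 humanized livers, 4 given the HuR shRNA adenovirus (HuR KD) and 4 given a LacZ control adenovirus (LacZ), and from 12 WT livers, 6 in each group. All 20 livers thus carried an adenovirus, given intravenously at 2000000000 plaque-forming units per mouse and left for 7 days before harvest after a 4 h fast. The HuR shRNA was directed against human HuR in humanized mice and against mouse HuR in WT mice, with different sequences. The WT mice were male C57BL/6 animals, bought at 8 weeks of age and housed for 10 to 14 days before use. The humanized mice were TK-NOG animals, which are highly immune-deficient and express a herpes virus thymidine kinase in the liver from a mouse albumin promoter. They were given ganciclovir at 25 mg/kg when 8 to 9 weeks old to ablate their own hepatocytes, received 1000000 cryopreserved primary human hepatocytes into the spleen 1 week later, and were used with serum human albumin above 0.5 mg/ml, measured 8 to 12 weeks after transplantation. Non-parenchymal cells of these livers remain murine, and the table analysed for them lists human genes only.

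In hepatocytes, zinc enters through SLC39 (ZIP) transporters and leaves the cytosol through SLC30 (ZnT) transporters. A rise in free zinc activates the factor MTF1, which binds metal response elements in the promoters of metallothionein genes and of SLC30A1, so the storage proteins and the exporter are textbook targets of the same sensor. Metallothionein genes are also classical targets of glucocorticoids, interleukin-6 and oxidative stress. In the mouse genome Mt2 (GRCm38 chr8:94172664-94173568, plus strand) lies 5513 bases upstream of Mt1 (chr8:94179082-94180327, plus strand), and Slc30a1 lies apart from them at chr1:191906767-191913247, also on the plus strand. The principal transcripts of Mt1 and Mt2 have 3 exons each and that of Slc30a1 has 2. Coordinates of the human genes were not analysed here.

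The promoter windows of the 3 mouse genes are shown because Mt1 and Mt2 varied together between WT livers, whereas Slc30a1 was the gene that differed with the knockdown. Each runs from 250 bases before the RefSeq transcription start to 30 bases after it (RefSeq, GRCm38.p6, plus strand). These starts differ from the gene starts given above, and that of Mt2 lies so far before it that the Mt2 window ends ahead of the annotated gene. Capitals mark the letters of the metal response element core, searched as TGCACNC and TGCGCNC on both strands.
Mt1, chr8:94178839-94179118: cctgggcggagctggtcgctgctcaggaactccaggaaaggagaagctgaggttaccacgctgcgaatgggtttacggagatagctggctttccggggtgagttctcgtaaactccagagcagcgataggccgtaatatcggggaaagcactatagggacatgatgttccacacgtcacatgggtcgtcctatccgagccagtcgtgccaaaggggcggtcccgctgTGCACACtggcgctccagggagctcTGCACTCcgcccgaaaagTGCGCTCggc
Mt2, chr8:94172368-94172647: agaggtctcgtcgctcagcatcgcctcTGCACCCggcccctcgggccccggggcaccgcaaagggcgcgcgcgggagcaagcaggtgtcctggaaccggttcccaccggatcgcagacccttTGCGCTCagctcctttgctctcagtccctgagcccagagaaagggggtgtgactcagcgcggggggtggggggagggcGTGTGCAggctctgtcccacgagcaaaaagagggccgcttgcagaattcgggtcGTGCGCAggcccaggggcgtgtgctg
Slc30a1, chr1:191906531-191906810: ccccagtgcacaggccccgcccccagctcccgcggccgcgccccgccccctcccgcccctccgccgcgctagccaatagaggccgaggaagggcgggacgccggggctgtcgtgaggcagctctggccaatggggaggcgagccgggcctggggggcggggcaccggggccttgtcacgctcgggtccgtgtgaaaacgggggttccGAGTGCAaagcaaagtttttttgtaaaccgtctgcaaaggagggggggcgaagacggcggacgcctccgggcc
The Mt1 window held 3 cores, all on the printed strand, and the Mt2 window held 4, of which 2 were on the opposite strand. The Slc30a1 window held 1, on the opposite strand. Of 32851 mouse promoter windows of the same length, 24.1% held at least 1 core and 1.73% held 3 or more. A match of letters is a description of the sequence and not a measured binding site.

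Levels are given as TPM, a measure of transcript abundance that corrects for gene length and for library size, and differences as HuR KD minus LacZ on the log2(TPM + 1) scale with the standard error (SE) of the fit. Reads on genes, recovered from the steps of the TPM values, ranged from 2670469 to 20302454 in humanized livers and from 1423985 to 44668272 in WT livers, where 1 control liver (LacZ 2) held 1423985 reads and the others at least 12960373. ELAVL1 ranged from 2.37 to 4.05 TPM in HuR KD and from 4.77 to 6.17 TPM in LacZ humanized livers, and Elavl1 from 3.72 to 5.62 and from 8.58 to 10.7 TPM in WT livers, so the targeted gene did not overlap between groups in either set. The humanized livers HuR KD 4 and LacZ 2 stood apart from the rest. They were the most deeply sequenced of their groups, with 20302454 and 19891555 reads, and their deviations from the group means over all genes correlated at 0.53, the highest value between a knockdown and a control liver. The main calls, log2 differences and correlations that rest on them are given with and without them. The order of levels, the shares of each metallothionein gene and the ranking of genes by likeness are given with them only.

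In humanized livers all 7 metallothionein genes and SLC30A1 had higher means in HuR KD than in LacZ. The 3 genes whose groups did not overlap were MT1H, MT1G and MT1M, and the abundant MT2A differed the least of the metallothioneins. MT1H, a minor isoform, was read at 17.7, 22.8, 35.8 and 30.1 TPM in HuR KD livers 1 to 4 and at 3.56, 4.79, 8.97 and 3.39 TPM in LacZ livers 1 to 4. Every HuR KD liver stood above every LacZ liver, and the means were 26.6 ± 7.96 and 5.18 ± 2.61 TPM (SD, n = 4 each), a log2 difference of 2.20 (SE 0.30). The values rested on 20 to 241 reads in HuR KD and on 4 to 38 reads in LacZ livers.

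MT1G, an abundant isoform of hepatocytes, was read at 115, 128, 167 and 292 TPM in HuR KD livers and at 21.9, 90.0, 67.4 and 32.7 TPM in LacZ livers. The lowest HuR KD liver lay above the highest LacZ liver, and the means were 176 ± 80.6 and 53.0 ± 31.4 TPM (SD, n = 4 each), a log2 difference of 1.82 (SE 0.45). MT1M was read at 31.4, 39.8, 39.3 and 84.5 TPM in HuR KD livers and at 3.02, 30.1, 6.88 and 0 TPM in LacZ livers. The groups were separated only narrowly, by HuR KD 1 at 31.4 TPM and LacZ 2 at 30.1 TPM, while the other LacZ livers were at or below 6.88 TPM. LacZ 4 held 0 MT1M reads, which at its depth allows up to 3.60 TPM (3 reads, counting error only), and the log2 difference was 3.04 (SE 0.87), or 2.21 without that liver and 3.87 without LacZ 2.

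MT1F, the least abundant of the 8 genes, was read at 7.62, 7.59, 10.4 and 21.5 TPM in HuR KD livers and at 1.53, 10.6, 3.06 and 3.64 TPM in LacZ livers. Only LacZ 2 reached the HuR KD range, and the log2 difference was 1.28 (SE 0.47). MT2A, the main metallothionein of human liver, was read at 120, 150, 142 and 507 TPM in HuR KD livers and at 49.2, 421, 153 and 91.9 TPM in LacZ livers. The groups overlapped widely, with HuR KD 4 and LacZ 2 far above the other livers of their groups. The means were 230 ± 185 and 179 ± 167 TPM (SD, n = 4 each), and the log2 difference of 0.53 (SE 0.65) was smaller than its error.

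MT1E followed MT2A, with 86.5, 102, 136 and 359 TPM in HuR KD livers and 24.7, 243, 61.4 and 55.9 TPM in LacZ livers. HuR KD 4 and LacZ 2 were again the highest of their groups, and the log2 difference was 1.08 (SE 0.66). MT1X was read at 16.0, 11.2, 19.1 and 86.5 TPM in HuR KD livers and at 2.83, 48.2, 6.10 and 11.0 TPM in LacZ livers, with a log2 difference of 1.13 (SE 0.82). For both genes the groups overlapped through LacZ 2. SLC30A1 was read at 34.2, 37.7, 48.7 and 53.8 TPM in HuR KD livers and at 29.1, 30.7, 39.8 and 41.9 TPM in LacZ livers. The groups overlapped, and the log2 difference of 0.29 (SE 0.19) was about as large as the SD between livers of a group (0.28).

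**Figure D1:**
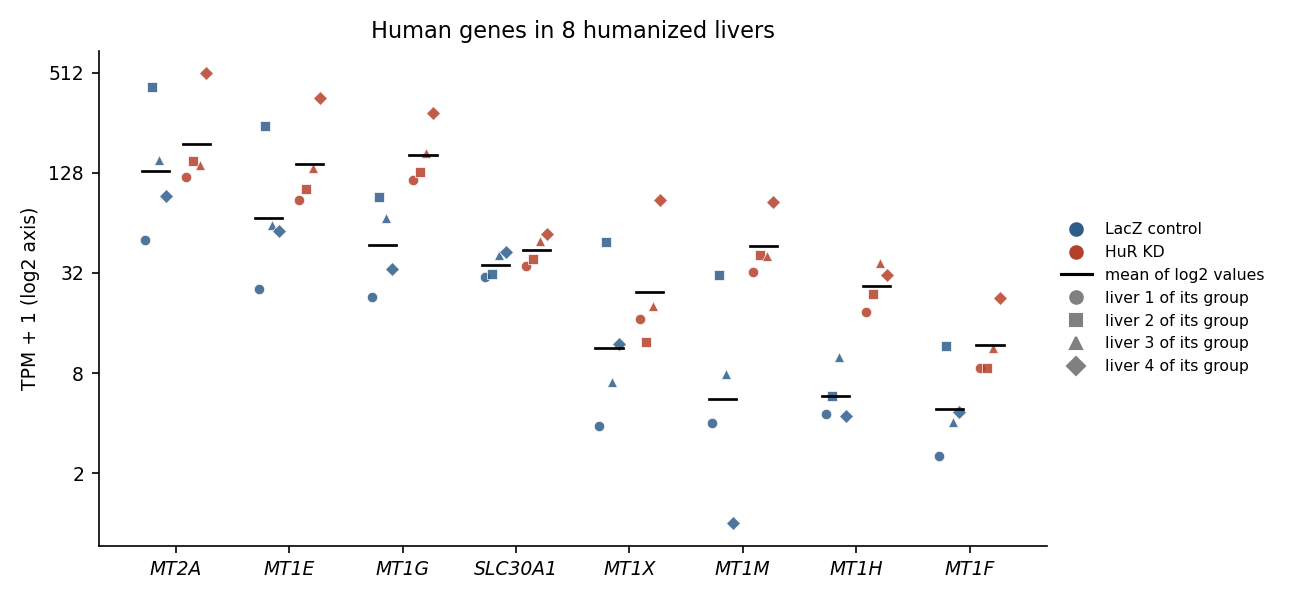
TPM + 1 (log2 axis) of the 8 human genes in each humanized liver, LacZ in blue and HuR KD in red, with a symbol for each liver of a group and a bar at the mean of the log2 values. MT1G, MT1M and MT1H do not overlap between groups, and the highest MT2A, MT1E and MT1X values are those of HuR KD 4 and LacZ 2.

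Over the 12738 human genes tested, 3.6% were called higher in HuR KD at an unadjusted p under 0.05 (limma), 2.13% were higher with no overlap between groups, and 0.212% passed a Benjamini-Hochberg adjusted p of 0.05 in either direction. Of the 8 genes, 4 were called higher (MT1F, MT1G, MT1H and MT1M), 3 did not overlap and 1 (MT1H) passed the adjustment. These counts come from the contrast that chose the genes and support nothing further. The median log2 difference was 1.28 over the 7 metallothioneins and -0.05 over all genes tested. Without HuR KD 4 and LacZ 2, 6 of the 8 genes were called (MT1E, MT1F, MT1G, MT1H, MT1M and MT1X). Over all genes 2011 of 12826 were then called in either direction, beside 1461 of 12738 with all 8 livers. The log2 differences without the 2 livers were 0.62 for MT2A, 1.25 for MT1E, 1.23 for MT1X, 3.57 for MT1M and 0.12 for SLC30A1. MT1F lost its call without HuR KD 4, LacZ 1 or LacZ 3 (log2 differences of 0.96, 0.96 and 1.19), and SLC30A1 gained one with median-of-ratios factors (0.37) and with voom on recovered reads (0.38). The differences of MT2A, MT1E and MT1X, whose groups overlapped, also moved with single livers. Leaving out HuR KD 4 gave log2 differences of 0.06 for MT2A, 0.64 for MT1E and 0.52 for MT1X. Leaving out LacZ 2 gave 1.09, 1.69 and 1.84, with the same 6 genes called, beside 1958 of all 12766 genes in either direction. Leaving out LacZ 1, the liver with the lowest MT2A, gave 0.07, 0.61 and 0.61.

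Summed over the 7 genes, metallothionein RNA came to 696 ± 460 TPM in HuR KD and 365 ± 332 TPM in LacZ livers (SD, n = 4 each), a ratio of 1.91. The ratio was 1.28 without HuR KD 4 and 3.41 without LacZ 2. The sums overlapped, from 395 to 1380 TPM against 107 to 847 TPM, whereas the shares that MT2A and MT1M took of the sum did not and those of the other 5 genes did. MT2A made up 25.8 to 36.7% of it in HuR KD and 46.1 to 49.8% in LacZ livers. MT1M made up 6.12 to 8.64% in HuR KD and 0 to 3.55% in LacZ livers. MT1G ranged from 21.1 to 30.4% and from 10.6 to 22.0%, and MT1E from 21.9 to 26.0% and from 20.0 to 28.7%, so the share of MT1E overlapped fully. HuR KD 4 and LacZ 2, the livers with the most metallothionein RNA, are part of these ranges. The shares come from the contrast that chose the genes, and higher shares of some genes lower those of the others. They are a description and support nothing further.

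**Figure D2:**
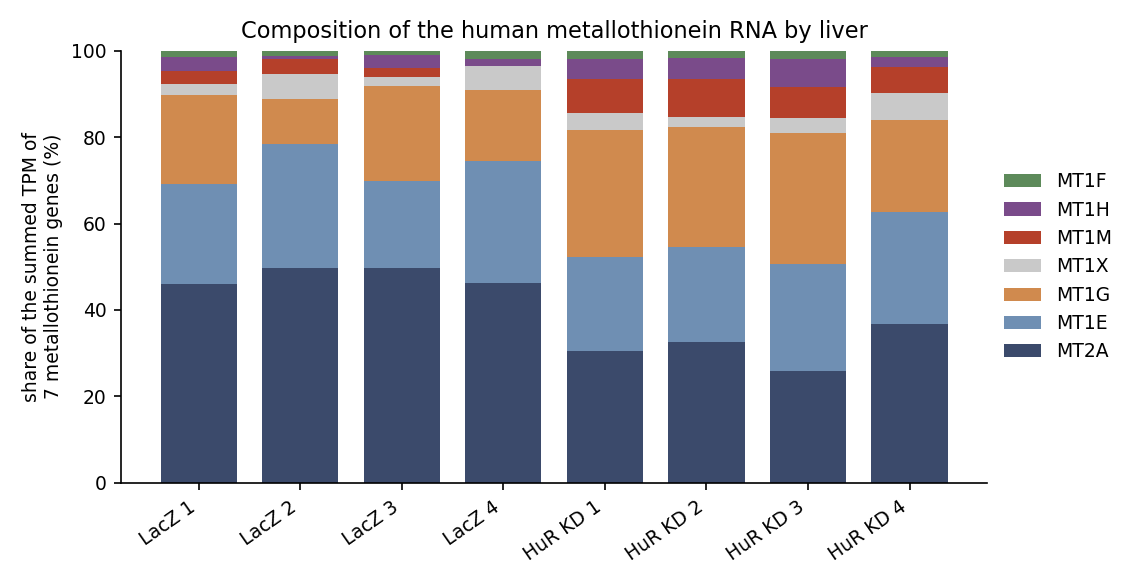
Share (%) of each of 7 human metallothionein genes in their summed TPM, 1 stacked bar for each humanized liver, LacZ 1 to 4 on the left and HuR KD 1 to 4 on the right. The MT2A share lies between 46.1 and 49.8% in LacZ and between 25.8 and 36.7% in HuR KD livers.

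The human metallothionein genes are closely similar in sequence, and how reads that fit several of them were counted is not given in the sources used here, so the split between isoforms is uncertain. Beyond the 7 genes, MT1A was listed at 13.0, 11.0, 23.4 and 39.2 TPM in HuR KD livers and at 6.49, 27.6, 15.0 and 4.64 TPM in LacZ livers, with overlapping groups. The pseudogene MT1L also overlapped, with its highest values, 22.6 and 24.2 TPM, in HuR KD 4 and LacZ 2. The pseudogene MT1DP was at 4.52 to 7.61 TPM in HuR KD and at 0 to 2.38 TPM in LacZ livers. It was thus higher without overlap, as were 2.13% of all genes tested. MT3 and MT4, the brain and epithelial isoforms, were listed at 0 in every humanized liver.

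In WT livers the exporter was lower in HuR KD and both metallothioneins lay within the spread between livers. Slc30a1 ranged from 15.3 to 20.4 TPM with a median of 15.8 in HuR KD and from 24.6 to 33.7 TPM with a median of 29.8 in LacZ livers. Every HuR KD liver lay below every LacZ liver, and the means of 16.7 ± 2.00 and 29.7 ± 3.51 TPM (SD, n = 6 each) put HuR KD at 56.2% of LacZ, a log2 difference of -0.79 (SE 0.09). Over the 17 alternatives tried, leaving out each liver included, the difference stayed between -0.85 and -0.76. The shallow LacZ 2 held 103 Slc30a1 reads at 33.3 TPM.

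Mt1 ranged from 124 to 506 TPM with a median of 220 in HuR KD and from 194 to 329 TPM with a median of 279 in LacZ livers. Mt2 ranged from 95.2 to 478 TPM with a median of 183 in HuR KD and from 127 to 310 TPM with a median of 257 in LacZ livers. For both genes the HuR KD livers spread beyond the LacZ range on either side. Means were 285 ± 164 and 262 ± 56.9 TPM for Mt1 and 224 ± 142 and 234 ± 73.9 TPM for Mt2 (SD, n = 6 each), with log2 differences of -0.04 (SE 0.32) and -0.21 (SE 0.36). HuR KD 1 held 473 TPM of Mt1 and 478 TPM of Mt2, and HuR KD 6 held 506 and 286 TPM. Mt3 and Mt4 were at or near 0 in all WT livers.

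**Figure D3:**
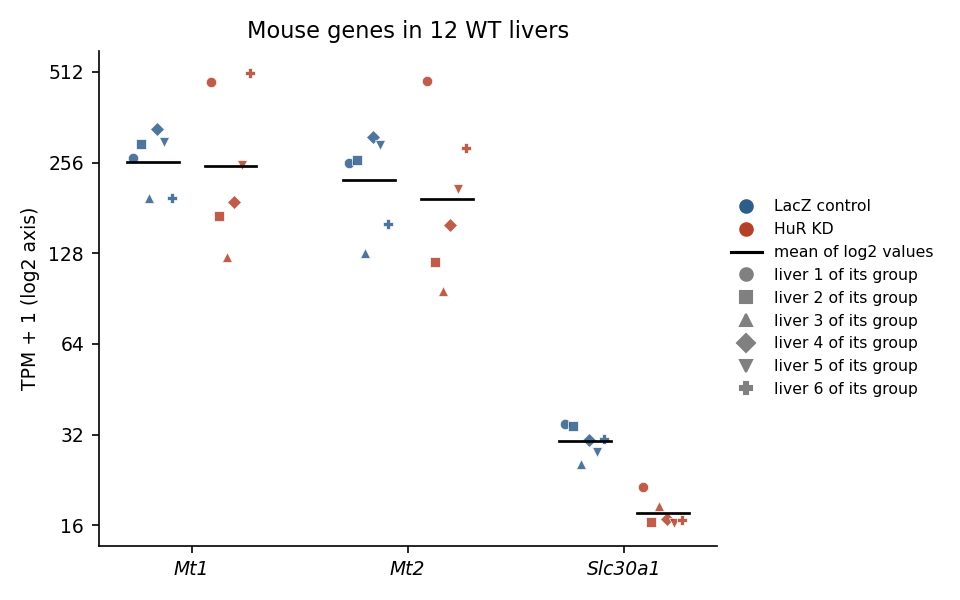
TPM + 1 (log2 axis) of Mt1, Mt2 and Slc30a1 in each WT liver, LacZ in blue and HuR KD in red, with a symbol for each liver of a group and a bar at the mean of the log2 values. Slc30a1 lies at 15.3 to 20.4 TPM in HuR KD and at 24.6 to 33.7 TPM in LacZ livers, while Mt1 and Mt2 overlap.

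Over the 15090 mouse genes tested, 9.09% were called higher and 6.94% lower at an unadjusted p under 0.05, 1.23% were lower with no overlap, and 0.888% passed the adjusted threshold in either direction. Of the 3 genes, Slc30a1 alone was called, did not overlap and passed the adjustment, which repeats the value it was chosen by. The human SLC30A1 difference of 0.29 and the mouse difference of -0.79 come from separate tables of different species, with different shRNAs, and were not tested against each other.

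Levels between genes were not used in the choice and were compared within livers by an exact two-sided sign-flip permutation test on log2(TPM + 1). From high to low by the mean of log2 values, the order in humanized livers was MT2A, MT1E, MT1G, SLC30A1, MT1X, MT1M, MT1H and MT1F. That order pools the groups and was found in neither. In HuR KD livers MT1G came before MT1E, and MT1M and SLC30A1 came before MT1H and MT1X, whereas in LacZ livers MT1M came after MT1H. None of the 7 neighbouring pairs passed the threshold adjusted over the 7 pairs, which a single pair cannot do with 8 livers. MT2A stood above MT1E in 8 of 8 livers by a mean log2 difference of 0.67 (SD 0.37), with an exact permutation p of 0.0078, the smallest that 8 livers allow, and an adjusted p of 0.055. MT1G and SLC30A1, SLC30A1 and MT1X, and MT1H and MT1F had the higher gene on top in 6 of 8 livers each, at an adjusted exact p of 0.109. In WT livers both neighbouring pairs differed. Mt1 exceeded Mt2 in 11 of 12 livers by a mean log2 difference of 0.29 (SD 0.25), and Mt2 exceeded Slc30a1 in 12 of 12 by 3.16 (SD 0.69), both at an adjusted exact permutation p of 0.00098. These sizes depend on the gene lengths behind the TPM. In WT HuR KD 1, 7633 Mt1 reads and 3642 Mt2 reads stood at 473 and 478 TPM, so Mt1 was divided by the greater length. The principal transcripts have 549 bases for Mt1 and 511 for Mt2, and a further Mt1 transcript has 1085. How far Mt1 exceeds Mt2 per principal transcript was not computed.

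Variation between livers of the same group was examined after removal of the group means, which leaves out the contrast that chose the genes. In WT livers Mt1 and Mt2 rose and fell together, with a Pearson r of 0.936 (adjusted exact permutation p = 0.000243 over 3 pairs, n = 12) and a Spearman rho of 0.972 (adjusted exact permutation p = 0.000203). Without the 2 livers with the most extreme Mt1, HuR KD 3 and HuR KD 6, r was 0.979. Slc30a1 did not pass with either gene, at an r of 0.295 with Mt1 and 0.480 with Mt2 (adjusted exact permutation p = 0.386 and 0.188) and a rho of 0.161 and 0.280 (adjusted exact permutation p = 0.624 and 0.580). Without HuR KD 3 and HuR KD 6 the r with Mt1 was 0.665. Without HuR KD 1 and HuR KD 3, the 2 livers with the most extreme Mt2, the r with Mt2 was 0.404.

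In humanized livers MT2A was compared with each of the other 7 genes. Over all 8 livers Pearson's r passed for 4 of them, MT1E at 0.977, MT1F at 0.952, MT1G at 0.951 and MT1X at 0.921 (adjusted exact permutation p = 0.0122, 0.0304, 0.0122 and 0.0304). Spearman's rho passed for MT1E at 0.881, MT1G at 0.976 and MT1M at 0.905 (adjusted exact permutation p = 0.0486 for each). MT1H did not pass, with an r of 0.406 and a rho of 0.643 (adjusted exact permutation p = 0.431 and 0.180). MT1M had an r of 0.762 and SLC30A1 an r of 0.324 (adjusted exact permutation p = 0.0899 and 0.438). HuR KD 4 and LacZ 2 were the livers farthest from the median of MT2A. In the 6 other livers r with MT2A was 0.936 for MT1G, 0.876 for MT1E, 0.709 for MT1F, 0.497 for MT1X and 0.295 for MT1M, so that it stayed high for MT1G and MT1E and dropped most for MT1X and MT1M. For MT1H and SLC30A1 it was higher there than over all livers, at 0.699 and 0.584. These r keep the group means of all 8 livers. With group means taken anew from the 6 livers, r was 0.878 for MT1E and 0.937 for MT1G. None of the 7 passed there (exact permutation p of 0.0556 for MT1E and 0.111 for MT1G, unadjusted). Only 36 permutations are possible with 6 livers, so a lost call says little.

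Genes of the glucocorticoid response moved with the same 2 livers. Of the 10 genes on the list, 9 were higher in both HuR KD 4 and LacZ 2 than in any of the other 6 livers, the exception being the receptor gene NR3C1. How many of all genes do the same was not counted. The 2 livers deviated together over all genes (correlation 0.53), so the pattern is not shown to be particular to this list. TSC22D3, which encodes the glucocorticoid-induced leucine zipper, was at 26.2 TPM in HuR KD 4 and 31.8 TPM in LacZ 2 and at 0.26 to 2.54 TPM in the other 6. ZBTB16 was at 4.19 and 3.30 TPM against at most 0.31 TPM, and the clock gene PER1 at 9.26 and 10.3 TPM against at most 3.05 TPM. FKBP5, a chaperone of the glucocorticoid receptor, was at 4.61 and 4.92 TPM against at most 3.35 TPM. The separation was narrow for DUSP1, at 287 and 113 TPM against at most 112 TPM. The part of depth and of these genes in the metallothionein levels was not tested.

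**Figure D4:**
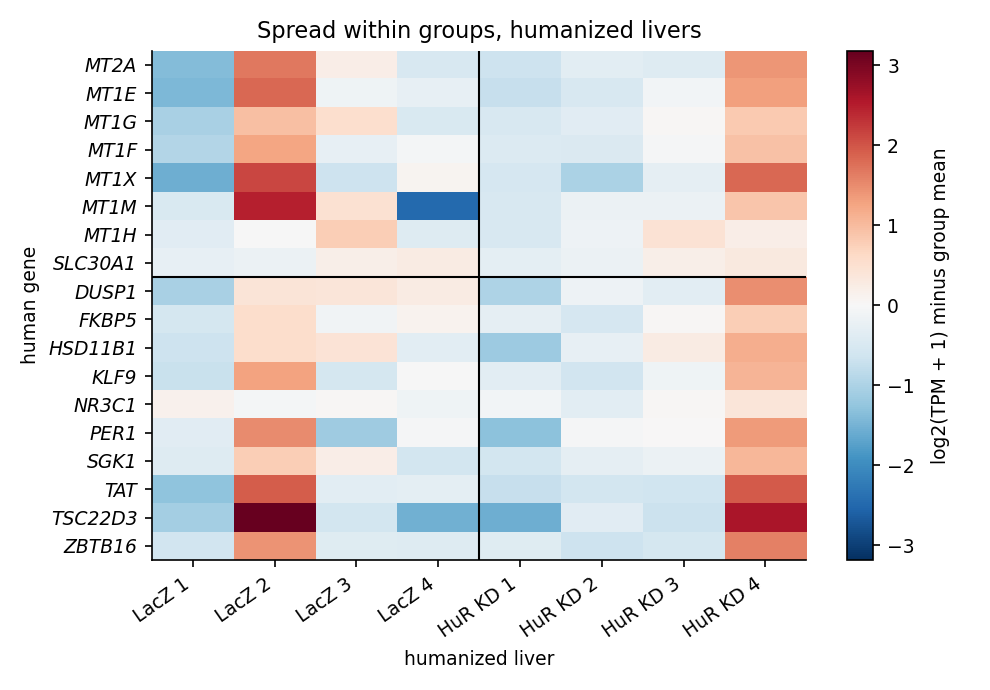
Deviation of log2(TPM + 1) from the group mean for the 8 human genes (above the line) and the 10 genes of the glucocorticoid response (below it) in each humanized liver, red above and blue below the mean. LacZ 2 and HuR KD 4 are red for MT2A, MT1E, MT1X and TSC22D3, whereas MT1H and SLC30A1 deviate little there.

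By Pearson's r after removal of group means, the genes with a mean of at least 5 TPM most like the human metallothioneins as a group were SDC1 (0.997), NAGS (0.991), FBXO31 (0.990), FGD5-AS1 (0.989) and GPLD1 (0.987), of 6439 genes over 8 livers. SDC1 encodes the proteoglycan syndecan-1 and NAGS the enzyme that makes the activator of the urea cycle. Those most like SLC30A1 were SOWAHC (0.994), ARIH2 (0.989), TMEM63A (0.966), MAST4 (0.964) and NDUFAB1 (0.960). In WT livers, of 9551 genes over 12 livers, Polr2a (0.935), Actn4 (0.877), Pcbp1 (0.870), Nudcd3 (0.854) and Cabin1 (0.853) were most like Mt1 and Mt2 as a pair, and Tor2a (0.917), Emilin1 (0.894), Hhex (0.846), H2-D1 (0.825) and Pkm (0.824) most like Slc30a1. The points share libraries of unequal depth, and the values are a ranking without a test.

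The other genes of zinc and copper handling and of the known metallothionein inducers were taken from 7 lists of 87 genes. In humanized livers 70 could be tested, of which 3 rose and 11 fell at an unadjusted p under 0.05, beside 3.6% and 7.87% of all genes tested, and 1 passed the adjusted threshold. The median log2 difference was -0.05 over the lists as over all genes. None of the 6 tested zinc exporters was called. SLC30A10, a manganese exporter of hepatocytes, was at 33.2 ± 3.03 TPM in HuR KD and 40.2 ± 5.07 TPM in LacZ livers (limma adjusted p = 0.514). Of 9 tested zinc importers, SLC39A5 rose from 45.7 ± 6.50 to 71.4 ± 7.55 TPM (log2 difference 0.64, SE 0.14), and SLC39A6 fell from 16.0 ± 2.29 to 8.77 ± 2.57 TPM (-0.83, SE 0.21), neither passing the adjusted threshold (limma adjusted p = 0.121 and 0.149). SLC39A10 also fell, a call lost without HuR KD 2 or 4 or LacZ 1, 3 or 4. SLC39A14, the inflammation-induced importer of zinc and iron, was at 127 ± 16.6 and 129 ± 38.4 TPM (limma adjusted p = 0.987).

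Of 15 genes of copper handling, ATP7B, the copper exporter mutated in Wilson disease, rose from 8.19 ± 0.862 to 11.6 ± 1.84 TPM (limma adjusted p = 0.298), and CP, the copper-carrying plasma protein ceruloplasmin, fell, a call lost without any 1 liver other than HuR KD 4 or LacZ 1. MTF1 itself was low, at 1.49 ± 0.539 TPM in HuR KD and 0.987 ± 0.203 TPM in LacZ livers (limma adjusted p = 0.709). Of the 8 tested oxidative stress genes 4 fell. TXNRD1, thioredoxin reductase, fell from 46.7 ± 9.34 to 20.6 ± 2.11 TPM, a log2 difference of -1.13 (SE 0.17, limma adjusted p = 0.0455), the only one of the 70 to pass. NQO1, a quinone reductase, fell from 41.7 ± 22.1 to 9.09 ± 2.24 TPM and GCLM, a subunit of the enzyme that starts glutathione synthesis, from 13.3 ± 1.69 to 8.13 ± 1.37 TPM (limma adjusted p = 0.146 and 0.140). GCLC, its catalytic subunit, was the fourth, with a call lost without HuR KD 2 or 4 or LacZ 1, 3 or 4.

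Of the 11 tested genes of the interleukin-6 response, IL6ST, the shared receptor subunit gp130, fell from 72.3 ± 11.8 to 38.7 ± 4.71 TPM (log2 difference -0.87, SE 0.16, limma adjusted p = 0.0768), JAK1, its kinase, fell, and HP, haptoglobin, rose from 144 ± 39.0 to 224 ± 38.4 TPM (limma adjusted p = 0.273). Of the 10 genes of the glucocorticoid response only NR3C1, the receptor, was called, falling from 19.2 ± 1.70 to 12.0 ± 2.85 TPM (limma adjusted p = 0.171). Among 11 zinc-dependent enzymes ADH5 fell, a call lost without HuR KD 4 or LacZ 4. SLC39A7, SLC39A12 and SOCS3 were listed at 0 in every humanized liver.

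In WT livers 82 of the 87 genes were matched under the same symbol and 76 could be tested. Of these 7 rose and 9 fell at an unadjusted p under 0.05, beside the 9.09% and 6.94% of all genes given above, and none passed the adjusted threshold. Among the genes that rose were Sgk1, a glucocorticoid-induced kinase, from 18.7 ± 2.21 to 29.3 ± 9.09 TPM, Alpl, alkaline phosphatase, from 18.5 ± 1.20 to 23.5 ± 3.77 TPM, and Sco2, a copper chaperone of cytochrome oxidase, from 33.9 ± 4.37 to 46.0 ± 10.5 TPM (limma adjusted p = 0.0914, 0.143 and 0.153). Dpp3, Jak1 and Adh5 rose by log2 differences of 0.19, 0.15 and 0.16 (limma adjusted p = 0.200, 0.210 and 0.288), and the call of Adh5 was lost without HuR KD 4 or 5 or LacZ 1, 2, 4 or 6.

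Among the transporters, the importer Slc39a5 was called higher, at means of 4.78 TPM in HuR KD and 3.10 TPM in LacZ livers (log2 difference 0.51, SE 0.23, limma adjusted p = 0.303), a call lost without any 1 liver other than HuR KD 3 or LacZ 1 or 3. Slc30a5, which loads zinc into the secretory pathway, fell from 20.9 ± 1.74 to 18.2 ± 0.932 TPM, and the importers Slc39a8 and Slc39a1 from 10.5 ± 1.65 to 8.39 ± 0.697 TPM and from 78.9 ± 6.43 to 66.9 ± 7.74 TPM (limma adjusted p = 0.173, 0.167 and 0.194). The 3 decreases, of -0.19 to -0.29 on the log2 scale, stood beside -0.79 for Slc30a1. Gclm fell from 67.5 ± 5.57 to 55.1 ± 5.95 TPM, Nqo1 from 18.5 ± 1.95 to 15.7 ± 1.33 TPM and Hsd11b1, which regenerates active glucocorticoid, from 191 ± 31.0 to 154 ± 10.1 TPM (limma adjusted p = 0.105, 0.201 and 0.181). Mtf1 was at 7.25 ± 0.810 and 8.31 ± 1.49 TPM, Slc39a14 at 73.2 ± 10.2 and 67.9 ± 2.61 TPM and Slc30a10 at 9.21 ± 2.61 and 8.73 ± 1.69 TPM in HuR KD and LacZ livers (limma adjusted p = 0.500, 0.634 and 0.930).

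**Figure D5:**
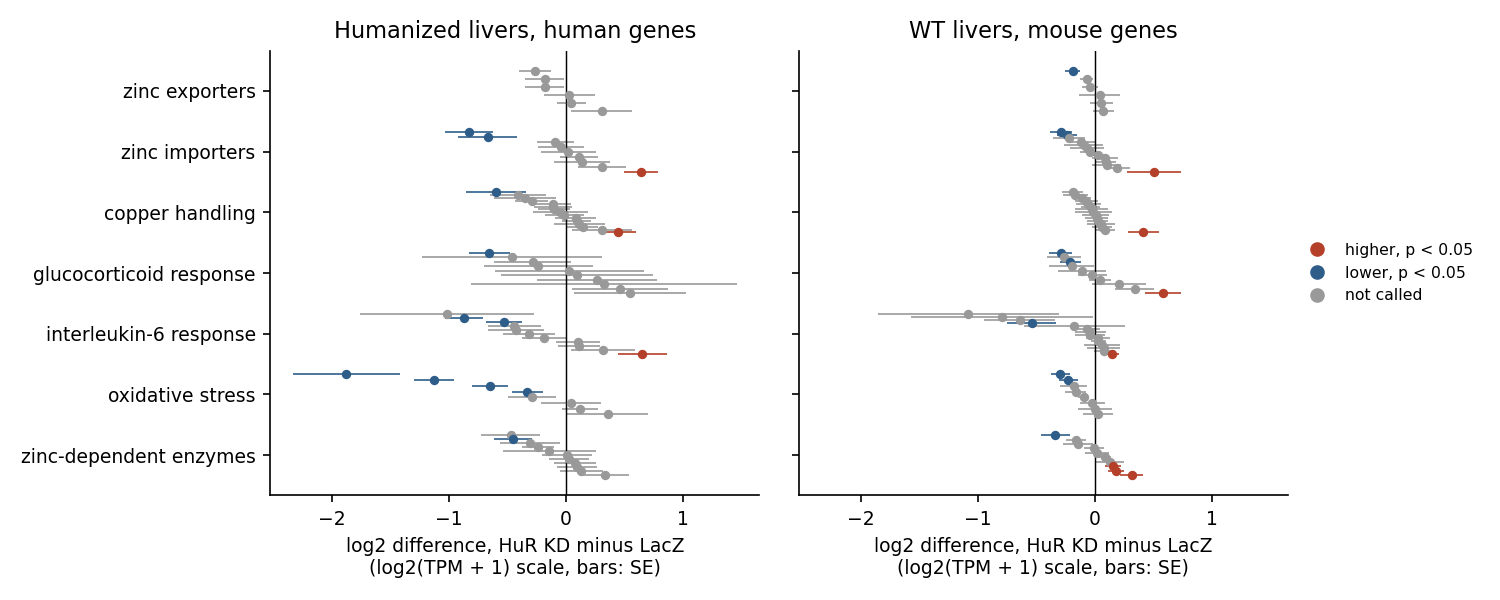
Log2 difference (HuR KD minus LacZ, log2(TPM + 1) scale, bars: SE) of each tested list gene outside the metallothioneins and SLC30A1, humanized livers on the left and WT livers on the right, red for genes called higher and blue for genes called lower at an unadjusted p under 0.05. The calls are 3 higher and 11 lower in humanized livers and 7 higher and 9 lower in WT livers.

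Markers of cell types were read beside these results. They were called at an unadjusted p under 0.05, beside the shares of all genes given above, and none passed the adjusted threshold in either set. In bulk liver, fewer cells of a type and less RNA per cell cannot be told apart. In humanized livers the 8 hepatocyte markers were all tested and none was called. Human markers of Kupffer cells (9 of 10 with a mean under 0.1 TPM), lymphocytes (6 of 6) neutrophils (4 of 5) and sinusoidal endothelial cells (5 of 7) were at or near 0. Human stellate cell and fibroblast markers summed to at most 5.28 TPM in any liver. Of 6 human cholangiocyte markers 4 were tested and 2 fell, EPCAM and SPP1, and their summed level ranged from 6.02 to 29.4 TPM in HuR KD and from 12.9 to 45.5 TPM in LacZ livers. In WT livers 0 of the 6 matched hepatocyte markers were called. Of 10 Kupffer cell and macrophage markers 5 fell (Cd68, Clec4f, Adgre1, C1qb and C1qc), with a median log2 difference of -0.37 over the 10 and a summed level of 274 to 509 TPM in HuR KD against 435 to 584 TPM in LacZ livers. Of 7 stellate cell markers 2 fell (Lrat and Rgs5), of 7 endothelial markers 1 rose (Stab2), and none of the 2 tested cholangiocyte, 2 lymphocyte or 3 neutrophil markers was called by limma. The part of these cells in the Slc30a1 and metallothionein values was not tested.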

How the data were processed

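RNA of 8 humanized and 12 WT livers was analysed from 2 deposited tables of TPM. The authors trimmed reads with cutadapt, aligned them with HISAT2, those of humanized livers against human and mouse together, and counted genes with featureCounts. The submitters' processing notes also name Trim Galore, Subread and the builds mm10 and GRCh38. How gene lengths entered the TPM is not given in the sources used here. For mouse genes the lengths recovered from the TPM, described below, matched the annotated exons of all transcripts of a gene together.

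Groups follow the labels, which do not say how livers of a group were raised or treated apart, so p-values measure the spread between these samples. Each table was fitted separately with limma 3.58.1 (R 4.3.3, lmFit and eBayes with trend) on log2(TPM + 1), a scale that understates changes of low genes, for genes with a mean of at least 1 TPM. Genes were called at an unadjusted p of 0.05, with Benjamini-Hochberg adjustment over all genes tested beside it. Levels and covariation were tested by exact permutation in Python 3.11.15. Alternatives were another pseudocount, filter, scaling, variance trend and replicate block, voom on recovered reads, and livers left out.

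Whole reads were recovered from the TPM steps within 0.02 reads for 100% of 18702 human and 25110 mouse genes above 0 in at least 4 libraries, and 99.9% of 24645 mouse genes had a recovered length within 2% of the annotated exon length. Counting floors cover counting error only. Scripts were tested on simulated data.

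The members and lists were chosen with earlier results of these data known. All members are named, and of the list genes up to 6 with the smallest p in each direction, MTF1, SLC39A14 and SLC30A10, and the 5 genes most like each pattern. SLC39A10, CP, GCLC, human JAK1 and ADH5, and Slc39a5 of WT livers were named after their values were seen. So were MT1A, MT1L, MT1DP, the genes listed at 0 and the glucocorticoid response genes given by liver.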

Additional observations from a re-analysis of the deposited data

Results flagged for a closer look

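In groups of 4 or 6 livers, the liver at either end was compared with Dixon's critical value for an outlying value, for each of the 11 genes in each group. Of 22 groups 4 held an outlying liver, all in the humanized set. Chance gives about 1 in 20 for independent, normally distributed values. The count cannot be set against that rate, since these genes varied together in the same livers and TPM were used without the log2 scale. In HuR KD 4, MT2A (507 TPM), MT1X (86.5 TPM) and MT1M (84.5 TPM) lay above the other 3 HuR KD livers, and in LacZ 2, MT1E lay above the other 3 LacZ livers at 243 TPM. Both livers were the most deeply sequenced of their groups and held the most TSC22D3, at 26.2 and 31.8 TPM. MT1H, which had its highest values in HuR KD 3 and LacZ 3, and SLC30A1 had no outlying liver in either group.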

How the results depend on the processing

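The log2 differences of the 11 genes were recomputed under 163 alternatives in all, and each moved by less than the spread between livers. Leaving out 1 liver or adding a replicate block cannot move a difference by more than that spread. For these alternatives the outcome was fixed in advance and says nothing of robustness. MT2A went from 0.53 to 0.06 without HuR KD 4 and still counted as within the spread. Members called stayed between 3 and 6 in humanized livers and at 1 in WT livers, and both pairs of neighbouring levels in WT livers kept their difference. Genes called in humanized livers (1461) fell to 931 with a mean of at least 5 TPM, where fewer genes were tested, and to 27 after adjustment; leaving out 1 liver gave 1098 to 1958. WT genes called (2418) fell to 134 after adjustment. The list genes called fell from 14 to 1 and from 16 to 0 after adjustment. They rose to 22 in humanized livers without HuR KD 4 and LacZ 2, where the genes called over all also rose, from 1461 to 2011. That alternative was chosen after seeing the data, and the cause was not tested. Of the 7 correlations with MT2A, 4 passed, between 0 and 5 with 1 liver left out (0 without HuR KD 4 and 2 without LacZ 2) and 0 without both, where 6 livers can hardly pass. Of the named list genes called, CP lost its call in 10 of 17 alternatives, GCLC in 9 of 17, SLC39A10 in 6 of 16 and ADH5 in 2 of 17 in humanized livers. In WT livers Slc39a5 lost its call in 13 of 19, Adh5 in 9 of 20, Dpp3 with median-of-ratios factors and Nqo1 with voom on recovered reads; the others named kept theirs. Same-numbered livers shared only a number, with correlations of their deviations from -0.25 to 0.14 in humanized and -0.14 to 0.21 in WT livers. A replicate block gave 1401 and 2242 genes called, 13 and 14 list genes and 4 and 1 members, and lost the calls of CP, GCLC, Slc39a5 and Adh5 among the named list genes. Depth limits MT1H and MT1M most, read by 4 to 38 and 0 to 169 reads in LacZ livers.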
